A study of Mus musculus with 24 samples.

Results

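The liver of untreated male mice, 4 weeks old, is described here from 6 RNA sequencing libraries, which are the 6 of 24 samples whose labels give a dose of 0 g/L. In the whole study male B6C3F1 mice, the first-generation cross of C57BL/6 and C3H, received dichloroacetic acid (DCA), which forms when water is chlorinated, in their drinking water for 6 days at 0, 1, 2 or 3.5 g/L, with 6 samples a dose. Only the libraries of mice that received no DCA are used, and they carry the replicate numbers 3 to 8 of their labels, written below as library 3 to library 8. RNA came from about 20 mg of liver of mixed lobes, frozen in liquid nitrogen, and libraries were made from 100 ng of total RNA with a stranded kit that removes ribosomal RNA. The mice were of 1 sex, strain and age and carried no allele or agent named in the labels. The labels do not say that each library came from its own mouse, so the spread between libraries given below may be partly technical.

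The liver makes most proteins of the blood plasma, clears ammonia through the urea cycle, makes and exports lipids, and oxidises drugs and steroids with cytochrome P450 enzymes. Hepatocytes make up most of its mass and divide these tasks by their position between the portal and the central vein, while Kupffer cells (the resident macrophages), sinusoidal endothelial cells, stellate cells and bile duct cells form the rest. In mice many liver genes also differ between the sexes under the pattern of growth hormone release, and infection or injury switches on a set of secreted proteins called the acute phase response. In bulk tissue, fewer cells of a type and less RNA per cell cannot be told apart.

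The deposited values are RPKM, reads scaled to the length of the gene model and to the reads of the library. The table used here runs in order of gene symbol and ends within the line of Olfr272, so that genes later in the order were not analysed here. Every share, rank and list below covers only the genes held, so ranks in the whole liver may be lower. It held 15582 genes, of which 6294 (40.4%) reached 0.5 RPKM in at least 3 of the 6 libraries and are called detected, and 4687 (30.1%) were listed at 0 in all 6. Depth was estimated at 27000000 to 28500000 reads a library from low values taken to stand for 1 read. The summed RPKM lay between 141389 in library 3 and 159725 in library 8. Pairs of libraries correlated across detected genes, on log2(RPKM + 1), with r from 0.983 to 0.991 over 15 pairs (genes are not independent replicates). As a check of the labelled sex and tissue, Ddx3y, an RNA helicase of the Y chromosome, had 7.92 to 9.56 RPKM, and all 30 of 30 listed hepatocyte genes were detected. Library 8 stood apart in acute phase genes and library 5 in skeletal muscle genes, and medians and counts that shift by over 1.5 times when either is left out are given both ways. Library 3 was the lowest library for 33.9% of all detected genes, against 8.10% to 18.3% for each of the others. Values of library 8 or 5 set against the other libraries show each side on its own.

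Few genes held most of the message. The 24 genes with a mean of 1000 RPKM or more made up 40.6% of the summed RPKM of detected genes, the 159 genes from 100 to 1000 RPKM a further 26.6%, and the 1242 genes from 10 to 100 RPKM 22.8%. By contrast the 3914 genes from 1 to 10 RPKM held 9.52% and the 955 detected genes below 1 RPKM held 0.449%. The median detected gene stood at 3.52 RPKM. The 10 highest genes took 29.2% ± 1.11 (SD, n = 6) of the sum and the 100 highest 59.9% ± 0.579 (SD, n = 6), and the first of these shares ranged from 27.6% to 30.6% over the libraries.

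**Figure D1:**
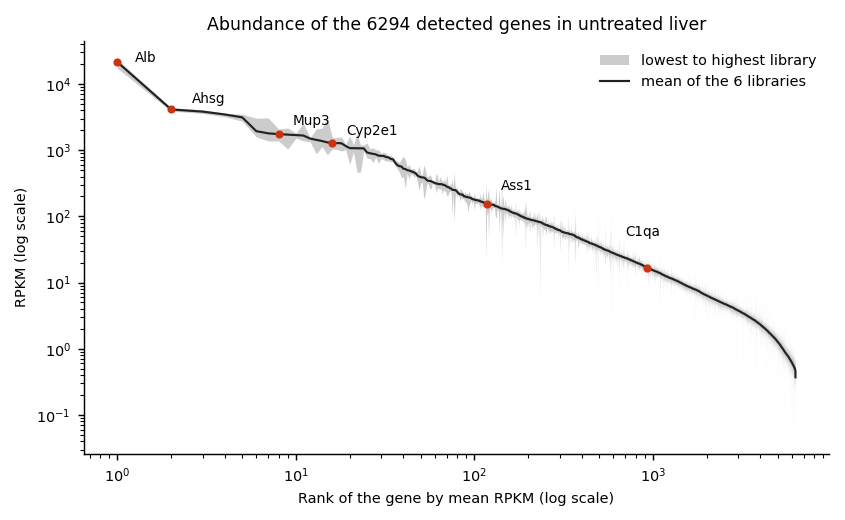
Mean RPKM of each detected gene (vertical, log axis) against its rank from the highest mean to the lowest (horizontal, log axis), over the 6 untreated libraries. The line is the mean, the grey band runs from the lowest to the highest library, and red points mark named genes. Alb stands above all others at 13.9% of the summed RPKM, and the curve reaches the median of 3.52 RPKM across the bulk of the 6294 genes.

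The 10 highest of the genes held encode secreted proteins, apart from the intracellular fatty acid carrier Fabp1. Alb, the main protein of plasma, stood first with 17250.0 RPKM in library 3 and 20485 to 23479.9 RPKM in the other libraries, 13.9% ± 1.14 (SD, n = 6) of the sum. Ahsg, the plasma glycoprotein fetuin A, came next with 4127 ± 180.3 RPKM (SD, n = 6), followed by the apolipoproteins Apoe at 3831 ± 187, Apoa1 at 3466 ± 157 and Apoa2 at 3137 ± 282 RPKM (SD, n = 6). These carry lipid in blood particles. The SDs of Ahsg, Apoe and Apoa1 come to 4.37%, 4.88% and 4.53% of their means, and Apoe lay above Apoa1 in each of the 6 libraries although their ranges overlap. Fgb, a fibrinogen chain that forms clots, the haem carrier Hpx, Mup3, Fabp1 and Apoc1 filled the places from 6 to 10. Among genes of metabolism, Cyp2e1, which oxidises ethanol and small solvents, had 1289 ± 178 RPKM (SD, n = 6) at rank 16, Gstp1, a glutathione transferase, 1278 ± 193 RPKM (SD, n = 6) at rank 17, and Cps1, the first enzyme of the urea cycle, 820.3 ± 82.6 RPKM (SD, n = 6) at rank 31. Malat1, a nuclear noncoding RNA that a total RNA kit retains, stood at rank 34 with 670.1 to 834 RPKM.

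The place of Ass1, the urea cycle enzyme argininosuccinate synthetase, depends on a near-identical copy. Gm5424, annotated as a single-exon copy on chromosome 10 (chr10:62071123-62072362), was listed with 828 ± 143 RPKM (SD, n = 6) at rank 29, while Ass1 itself on chromosome 2 (chr2:31470207-31520672) had 155 ± 22.5 RPKM (SD, n = 6) at rank 117. The coding sequence of Ass1 and the transcript of Gm5424 differ at 6 of 1239 aligned bases (99.5% identical), so that the split of reads between both loci is uncertain. No complete coding sequence was found for Gm5424.

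Families of genes took very unequal shares. Families were taken by gene symbol. Apolipoproteins, with 17 of 28 members detected, held 10.1% ± 0.318 (SD, n = 6) of the summed RPKM, major urinary proteins 5.01% ± 0.665 with 19 of 20 members, the fibrinogen chains 3.23% ± 0.811 and complement components, the plasma proteins that mark microbes, 2.14% ± 0.227 (SD, n = 6 each). Apolipoprotein shares kept close together, from 9.57% in library 8 to 10.5% in library 3. The fibrinogen share was 4.86% in library 8 and 2.74% to 3.13% in the other 5 libraries. Glutathione transferases outside the alpha and mu classes held 1.56% of the sum, heat shock proteins and their co-chaperones 1.41% and carboxylesterases, which cleave drugs and lipids, 1.39%. All 77 of 77 genes of mitochondrial ribosomal proteins were detected, and their joint share of 0.451% ± 0.007 (SD, n = 6) had the narrowest relative spread named here, a CV of 1.59%.

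**Figure D2:**
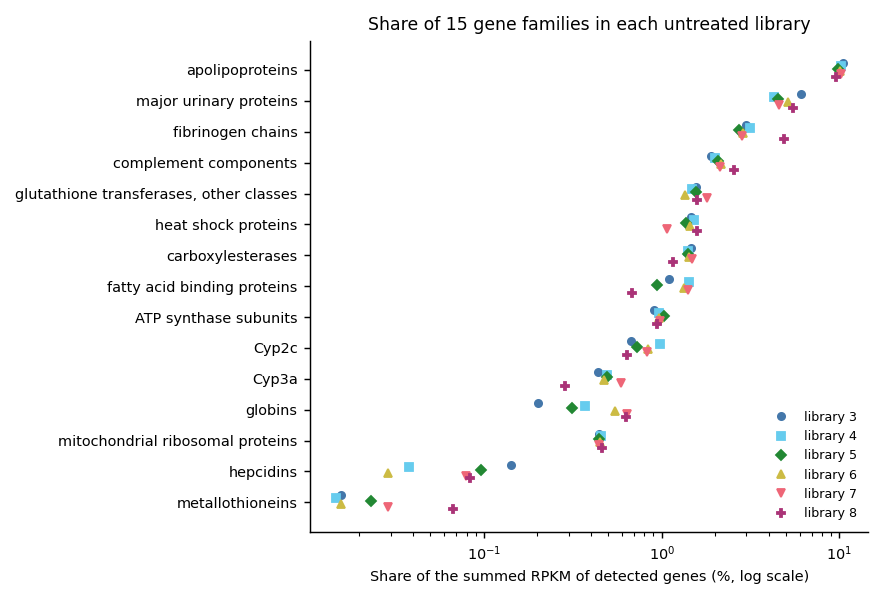
Share of the summed RPKM of detected genes (horizontal, percent, log axis) for 15 gene families, with 1 marker for each of the 6 untreated libraries. Apolipoproteins hold 10.1%, and the points of the fibrinogen chains lie together except for library 8 at 4.86%.

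Other families were almost silent. Of 526 olfactory receptor genes held, 503 were listed at 0 in all 6 libraries, and the detected ones were Olfr1033 and Olfr1034, described further below. None of 42 Hox genes, which set position along the body axis, was detected and 22 were at 0 throughout. Of 61 defensins, peptides that kill microbes, none was detected and 59 were at 0, as were 36 of 52 keratins, whereas the hepatocyte keratins Krt18 and Krt8 had 47.1 ± 5.56 and 41.3 ± 3.46 RPKM (SD, n = 6 each). Genes of microRNA precursors and hosts were at 0 in 1177 of 1192 cases, which in a library of long fragments says little about the mature microRNAs.

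Enzymes of both vein zones were well represented, with median CVs of 15.9% for the pericentral list (10.6% without library 8) and 14.4% for the periportal list. Of 22 genes listed for the pericentral zone 21 were detected, and all 24 of 24 periportal genes were, with summed RPKM of 2255 to 2964 and 2587 to 3064 over the libraries. Glul, the glutamine synthetase of the last hepatocytes before the central vein, had 116 to 145 RPKM (median 134), and the lowest value was in library 3. Cyp1a2, a pericentral P450 of aromatic amines, had 148 to 228 RPKM (median 205), lowest in library 8. The periportal enzymes Arg1, which splits arginine at the end of the urea cycle, and Cyp2f2 had 301 to 408 RPKM and 263 to 361 RPKM. Bile acid genes spanned Abcb11, the canalicular export pump, at 106 to 135 RPKM down to Cyp7a1, the rate-limiting enzyme of bile acid synthesis, at 2.27 to 4.54 RPKM (median 2.92), highest in library 4.

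Male-biased genes were abundant and most female-biased genes were not. All 25 of 25 male-biased genes were detected, with a median of their means of 106 RPKM, against 11 of 21 female-biased genes, with a median of 1.51 RPKM among those detected. Elovl3, a fatty acid elongase, had 168 to 259 RPKM, Hsd3b5, a steroid dehydrogenase, 77.8 to 116 RPKM, and Cyp4a12a, a male-biased P450 of fatty acids, 74.1 to 144 RPKM. Among female-biased genes Cyp2b9 had 0.226 to 1.32 RPKM and Cyp2b13 was listed at 0 in all but library 4, at 0.0193 RPKM. Fmo1, a flavin monooxygenase, had 24.5 to 36.8 RPKM. Cyp2c40, a female-biased P450 that acts on arachidonic acid, had 131 RPKM in library 7, 68.6 in library 4, 37.2 in library 6, 28.0 in library 8, 17.1 in library 5 and 17.0 in library 3. Its near copy Cyp2c69, 97.9% identical in coding sequence, had its values in the same order except for the lowest pair, from 22.8 RPKM in library 7 to 1.79 RPKM in library 5, and reads may be shared between these genes.

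Cish and Bcl6, which are known to answer growth hormone pulses, ranged widely and were named for their spread. The 25 male-biased genes had a median CV of 18.5%. In 6 of these 25 the highest library was 2 times or more the lowest, on RPKM + 0.1. Cish, a feedback inhibitor that growth hormone induces through STAT5, had 11.0 RPKM in library 4, 5.20 in library 6, 2.58 in library 8, 1.46 in library 5, 0.248 in library 7 and 0.136 in library 3. Bcl6, a repressor that STAT5 is known to hold down, had 15.7 RPKM in library 3, 14.0 in library 7, 8.96 in library 5, 4.66 in library 4, 1.85 in library 6 and 1.77 in library 8. Libraries 3 and 7, the lowest for Cish, were the highest for Bcl6. Alas1, the first enzyme of haem synthesis, ranged from 12.5 RPKM in library 7 to 109 RPKM in library 6, and library 7 was also lowest for Igfbp2, a carrier of insulin-like growth factors, with 35.9 RPKM against 73.1 to 126 RPKM elsewhere.

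Fetal and cell cycle genes were low. Of 20 fetal and neonatal liver genes 5 were detected, and Afp, the fetal counterpart of albumin, stayed between 0.318 and 0.629 RPKM. Among 32 genes of DNA replication and mitosis 13 were detected, with Ccnd1, a cyclin of the start of the cycle, at 3.35 to 5.15 RPKM and Mki67, a mark of cycling cells, at 0.771 to 1.50 RPKM. Of the core clock 13 of 16 genes were detected. Arntl, the activator BMAL1, had 6.55 to 7.86 RPKM, and Dbp, an output gene of the clock with a steep daily rhythm, 0.156 to 0.312 RPKM. No library had Dbp above Arntl. The hour of collection is not among the labels used here.

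Markers of the other liver cells were present at low levels. The median CV of the sinusoidal endothelial list was 10.9%, that of the Kupffer cell list 15.6% (9.20% without library 8) and that of the stellate cell list 17.5% (10.8% without library 5), against 11.4% over all detected genes. Sinusoidal endothelium was represented by 19 of 19 genes with a summed 124 to 141 RPKM, among them Clec4g, a lectin of these cells, at 13.8 to 19.5 RPKM. Of the Kupffer cell list 19 of 20 were detected, with Clec4f, the lectin that defines these macrophages in rodents, at 20.0 to 26.7 RPKM. Stellate cells and fibroblasts had 15 of 17, with the matrix protein Bgn at 16.1 to 18.6 RPKM. Bile duct markers were thin, 6 of 12 detected and Epcam at 0.125 to 0.310 RPKM. Only Cd4 of 17 lymphocyte genes (0.428 to 0.844 RPKM) and only Fcgr3 of 11 neutrophil genes (2.53 to 3.74 RPKM) passed the detection limit. Pancreas was represented by Cela1 alone of 15 genes, at 8.77 to 11.4 RPKM, with 6 of the 15 listed at 0.

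Red cell transcripts varied as a block. The adult globins Hba-a1 and Hbb-b1, the chains of haemoglobin, had 48.1 and 105 RPKM in library 3 and up to 163 and 369 RPKM in library 8. Over the libraries the summed erythroid list had 344 RPKM in library 3, 537 in library 5, 646 in library 4, 938 in library 6, 1075 in library 8 and 1100.1 in library 7. Of its 11 detected genes 9 were lowest in library 3, where 33.9% of all detected genes were lowest. Alpha globin genes are close copies of each other, as are beta globin genes, so their individual values are uncertain. In the principal component analysis below Hbb-b2 and Hbb-bt had the same loading on the second axis, −0.0822. These 2 symbols may therefore hold the same values, and the globin family may count them 2 times.

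The spread between libraries was small for most genes. The coefficient of variation (CV, the SD over the mean of the 6 RPKM values) had a median of 11.4% over the 6294 detected genes, with an interquartile range of 8.17% to 17.4%. Counting of reads alone would give a median of 4.59% at the estimated depth over the 5982 genes with an annotated length. Of these 5982 genes 94.3% exceeded their counting CV, and 61.6% of the 5982 exceeded 2 times their counting CV. The counting CV covers sampling of reads only, since no molecular identifiers were used. By level, the median CV was 14.9% at 1000 RPKM and above, 10.2% from 100 to 1000, 9.49% from 10 to 100, 11.0% from 1 to 10 and 19.2% below 1 RPKM. Without library 8 the most abundant class had 8.83%, against 8.91% and 8.90% in the classes next below it.

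**Figure D3:**
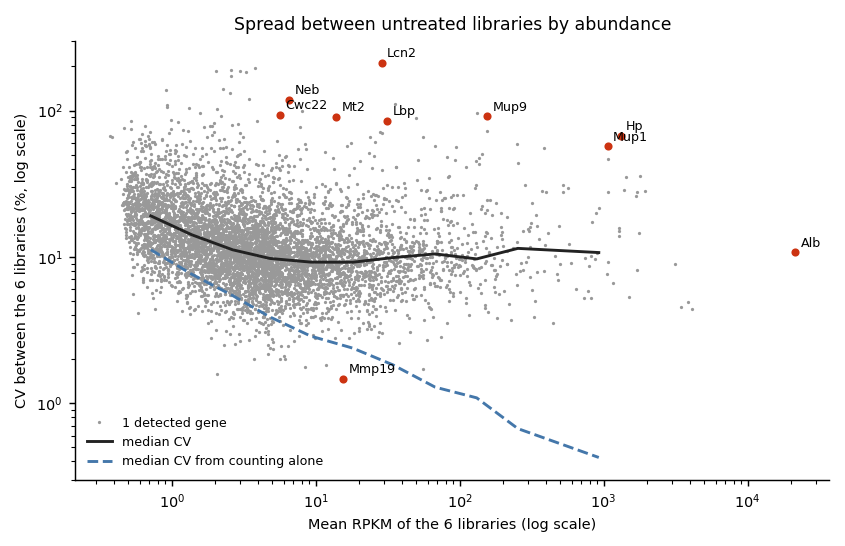
CV over the 6 untreated libraries (vertical, percent, log axis) of each detected gene against its mean RPKM (horizontal, log axis), with a solid line for the median CV by abundance and a dashed line for the median CV that read counting alone would give. The red points of Mup1, Mup9, Hp, Lbp and Lcn2 lie well above the cloud, whose median is 11.4%, and Mmp19 lies at its lower edge.

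Housekeeping and clotting genes were among the steadier sets. Coagulation factors had a median CV of 7.22%, subunits of respiratory complex I 7.59%, the 55 nuclear genes of oxidative phosphorylation 8.57% (5.41% without library 3) and the hepatocyte core 8.97%, against 11.4% over all detected genes. Abundance differed too, with a median of the means of 45.6 RPKM in the oxidative phosphorylation list and 805 RPKM in the hepatocyte core. All detected genes from 10 to 100 RPKM had a median CV of 9.49%, and those from 100 to 1000 RPKM 10.2%. At the other end stood acute phase genes with 27.8% (9.20% without library 8), genes of the glucocorticoid and fasting response with 28.2%, the Cyp2c family with 28.5%, globins with 42.3%, major urinary proteins with 55.5%, detected female-biased genes with 58.5% and the metallothioneins, which bind zinc and copper, with 80.2% (41.4% without library 8). Among genes with a mean of 5 RPKM or more, the lowest CV belonged to Mmp19, a matrix metalloproteinase, with 15.4 to 16.0 RPKM (1.47%), followed by the translation factor Eif4g1 with 54.7 to 57.1 RPKM (1.72%), Gpbp1l1 (1.77%), Arpc5, a subunit that seeds actin branches (1.83%), and the adaptor Nck1 (1.99%). The CV of Mmp19 lies below its counting CV of 2.55%, which 6 values can give.

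In 534 of the 6294 genes (8.48%) the highest library was 2 times or more the lowest, on RPKM + 0.1, and in 92 it was 4 times or more. Without libraries 5 and 8 the first count was 328. Of the 131 such genes with a mean of 5 RPKM or more (5.43% of 2413), 43 were lowest and 31 highest in library 8, and without that library the count was 86 (3.56%). A principal component analysis on log2(RPKM + 1) put 30.7% of the variance on its first axis, where library 8 scored 13.3 and library 5 scored −9.51, and 22.5% on the second, where library 3 scored 13.2. On the first axis Mup9 and Lcn2 lay at one end, and Mup14 and Mug2 at the other. Without library 8 the first axis held 32.5%, and library 3 scored 12.6 and library 5 scored −6.67 on it.

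Major urinary proteins are small pheromone carriers that the male liver secretes and the kidney passes into urine. Their genes form a tandem cluster on chromosome 4, where the 19 detected ones lie within chr4:59964294-62150863 (mm10). Their sum was 6718 RPKM in library 4, 6768 in library 5 and 7243 in library 7. It was 8134 RPKM in library 6, 8512 in library 3 and 8693 in library 8, a CV of 11.5%. The sum thus also lay higher in libraries 3, 6 and 8 than in libraries 4, 5 and 7. Single genes varied more, with a median CV of 55.5%. In 12 of the 19 (Mup1, Mup5, Mup6, Mup9, Mup10, Mup12, Mup13, Mup15, Mup16, Mup17, Mup19 and Mup21) libraries 3, 6 and 8 all lay above libraries 4, 5 and 7, an order that 239 of the 5339 genes with a mean of 1 RPKM or more showed (4.48%). In 5 others (Mup3, Mup7, Mup11, Mup14 and Mup20) libraries 4, 5 and 7 all lay above, as in 411 of 5339 genes (7.70%). These libraries were set apart by the values of the same genes, so the counts are a description.

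The coding starts of 4 of these genes are shown because genes with opposite orders differ at so few bases. Each line gives bases 4 to 93 of the 543-base coding sequence, from the mm10 gene models of GENCODE M21, and capitals mark the positions at which the 4 genes differ. Mup9 and Mup15 were high in libraries 3, 6 and 8, Mup14 and Mup7 in libraries 4, 5 and 7.
Mup9: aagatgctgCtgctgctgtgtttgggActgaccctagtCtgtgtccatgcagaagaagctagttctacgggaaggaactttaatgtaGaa
Mup15: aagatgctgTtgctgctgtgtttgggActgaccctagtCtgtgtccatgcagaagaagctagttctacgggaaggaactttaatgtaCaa
Mup14: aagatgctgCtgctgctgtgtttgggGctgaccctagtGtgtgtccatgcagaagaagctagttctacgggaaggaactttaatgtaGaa
Mup7: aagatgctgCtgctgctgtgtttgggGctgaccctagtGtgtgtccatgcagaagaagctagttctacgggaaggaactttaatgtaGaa
Within this stretch the pair Mup14 and Mup7 is identical, and over the whole coding sequence Mup14 differs from Mup7 at 5 bases and from Mup9 at 4. Mup9 differs from Mup15 at 4 bases. Among 14 of the genes coding sequences were 98.3% to 99.8% identical, so reads of these genes may be assigned to a neighbour, and the value of a single Mup gene is uncertain while the sum is less so.

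Mup9 had 303, 267 and 291 RPKM in libraries 3, 6 and 8, against 27.1, 23.7 and 26.4 RPKM in libraries 4, 5 and 7. Mup1 had 1499, 1609 and 1744 RPKM in libraries 3, 6 and 8, against 602, 466 and 493 RPKM in libraries 4, 5 and 7. Both fell into a high and a low set of libraries with no value between. Mup14 showed the reverse with 20.2 to 26.2 RPKM in libraries 3, 6 and 8, against 177, 224 and 319.5 RPKM in libraries 4, 5 and 7. The less similar members also split, Mup20, which encodes the male pheromone darcin, with 142, 81.9 and 143 RPKM in libraries 3, 6 and 8, against 353, 456 and 326 RPKM in libraries 4, 5 and 7. Mup10 was uneven within the high set, at 108 RPKM in library 3, 38.5 in library 6 and 43.2 in library 8. Mup2, at 20.1 to 27.0 RPKM, and Mup8, at 20.4 to 37.4 RPKM, followed neither order.

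**Figure D4:**
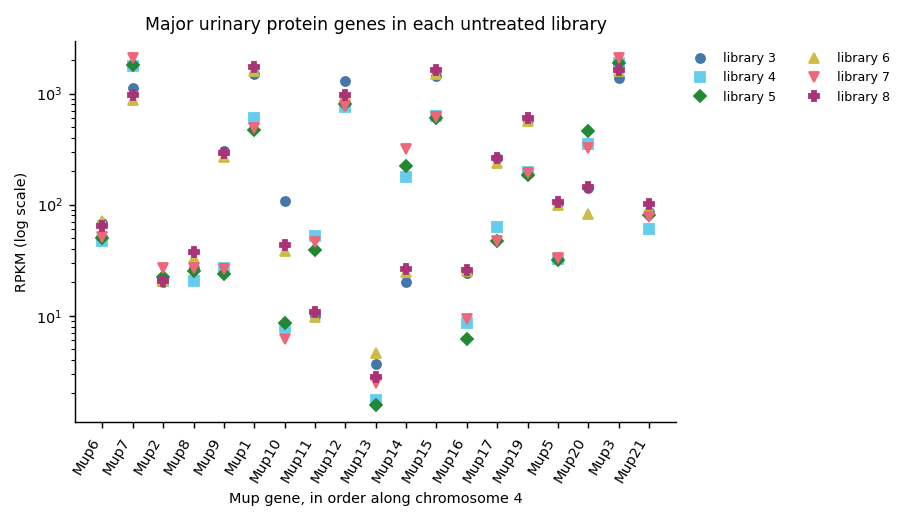
RPKM (vertical, log axis) of the 19 detected major urinary protein genes in order along chromosome 4, with 1 marker for each of the 6 untreated libraries. Libraries 3, 6 and 8 lie above libraries 4, 5 and 7 in 12 genes and below them in 5, including Mup14 and Mup20.

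Library 8 carried more acute phase message than the rest. Its summed acute phase list was 18492 RPKM, against 9125 to 10343 RPKM in the other 5 libraries, and 19 of the 21 detected genes of the list were highest in library 8, where 19.5% of all detected genes were highest. Lcn2, a neutrophil and liver protein that withholds iron from bacteria, had 153 RPKM in library 8, against 2.89 to 4.68 RPKM in the others. Hp, which binds free haemoglobin, had 3108 RPKM in library 8, against 847 to 1021 RPKM in the others. Both values lie far outside the range of the other 5 libraries. Lbp, which presents bacterial lipopolysaccharide, had 86.1 RPKM in library 8, against 18.0 to 23.8 RPKM in the others, and Hpx 3075 RPKM, against 1378 to 1720.0 RPKM. Nnmt, a nicotinamide methyltransferase, had 56.7 RPKM, against 13.6 to 25.4 RPKM, and Mt1, a metallothionein, 68.5 RPKM, against 13.1 to 30.0 RPKM.

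The promoters of 4 acute phase genes that were highest in library 8 are shown because 2 factors of the response, STAT3 and C/EBP, bind short known motifs. The 4 are examples picked without a rule, since 19 of the 21 detected genes of the list were highest in that library. Each line gives the 250 bases before the annotated start (RefSeq, GRCm38.p6), read 5′ to 3′ on the gene's strand, and capitals mark a match to TTCNNNGAA or TTGCNNAA on either strand.
Apcs (chr1:172895055-172895304, minus strand): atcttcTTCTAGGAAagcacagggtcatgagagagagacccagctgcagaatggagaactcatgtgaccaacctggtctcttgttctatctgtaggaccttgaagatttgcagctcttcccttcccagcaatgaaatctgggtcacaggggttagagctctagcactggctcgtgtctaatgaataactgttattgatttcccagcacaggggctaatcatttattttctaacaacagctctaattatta
Fgb (chr3:83049864-83050113, minus strand): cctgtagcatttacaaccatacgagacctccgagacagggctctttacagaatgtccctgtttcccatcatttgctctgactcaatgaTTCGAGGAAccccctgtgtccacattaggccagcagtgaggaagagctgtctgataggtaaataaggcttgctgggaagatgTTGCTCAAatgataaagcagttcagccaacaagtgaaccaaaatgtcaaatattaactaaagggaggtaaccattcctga
Fgg (chr3:83007474-83007723, plus strand): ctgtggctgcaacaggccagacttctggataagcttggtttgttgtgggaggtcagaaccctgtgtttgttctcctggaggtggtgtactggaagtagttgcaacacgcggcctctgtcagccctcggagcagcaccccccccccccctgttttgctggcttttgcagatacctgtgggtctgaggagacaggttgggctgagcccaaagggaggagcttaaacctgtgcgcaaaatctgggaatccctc
Itih4 (chr14:30886226-30886475, plus strand): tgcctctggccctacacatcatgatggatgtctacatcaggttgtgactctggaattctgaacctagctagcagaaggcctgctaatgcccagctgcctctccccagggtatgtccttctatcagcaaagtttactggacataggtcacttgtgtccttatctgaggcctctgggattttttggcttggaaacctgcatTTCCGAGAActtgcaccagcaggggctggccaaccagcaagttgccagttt
TTCNNNGAA matched at 244 bases before the start of Apcs, 162 before that of Fgb and 51 before that of Itih4, and TTGCNNAA at 80 bases before that of Fgb. Neither was found in the window of Fgg. Over all 27025 promoters of the table the first motif occurred in 7.18% and the second in 9.55%. Among the 4726 detected genes with a promoter the shares were 5.88% and 8.00%. Of the 16 detected acute phase genes with a promoter 5 had the first motif and 7 the second. Of the 25 highest genes 20 had a promoter, with the first motif in 2 and the second in 7. Of the 100 highest genes 70 had a promoter, with the first motif in 4 and the second in 16. The second motif was thus frequent among the most abundant genes as well. Apcs, the pentraxin serum amyloid P, had 267 RPKM in library 8, against 94.9 to 126 RPKM in the others. Fgb and Fgg had 3049 and 2529.8 RPKM in library 8, against at most 1862 and 1686 RPKM in the others. Itih4, a plasma protein of the inter-alpha-trypsin inhibitor family, had 808 RPKM in library 8, against 398 to 531 RPKM in the others.

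Further sets stood out in the same library. Chaperones of the endoplasmic reticulum, which fold secreted proteins, were highest in library 8 in 15 of 19 cases and lowest in library 7 in 12 of 19, against 19.5% and 12.4% of all detected genes. Hspa5, the main one, had 580.0 RPKM in library 8, 348 to 429.7 RPKM in libraries 3 to 6 and 245 RPKM in library 7. Of the 19 detected Kupffer cell genes 16 were highest in library 8, against the same 19.5% of all detected genes, among them the complement subunit C1qa at 24.4 RPKM, against 14.3 to 17.0 RPKM, and the scavenger receptor Marco at 2.11 RPKM, against 0.891 to 1.21 RPKM. The summed Kupffer list was 193 RPKM in library 8, against 134 to 152 RPKM in the others. The summed neutrophil list was 5.06 RPKM in library 8, against 3.47 to 3.89 RPKM in the others, of which Fcgr3 gave 3.74 RPKM in library 8, and 10 of its 11 genes were under the detection limit. Their part in the acute phase values was not tested.

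Some genes of metabolism and secretion were far lower in library 8 than elsewhere, while their lists differed. Mug2, a protease inhibitor of the macroglobulin family, had 4.99 RPKM in library 8, against 78.1 to 107 RPKM in the others, while Mug1, 95.1% identical in coding sequence, had 970.0 RPKM in library 8, within the range of 947 to 1198 RPKM of the others. Car3, a carbonic anhydrase, had 466 RPKM in library 8, against 1162 to 1207 RPKM in the others. Cyp4a10, a P450 that PPAR alpha induces for fatty acid oxidation, had 0.251 RPKM in library 8, against 2.52 to 9.86 RPKM in the others. Cyp3a11, which oxidises many drugs, had 264 RPKM in library 8, against 436 to 733 RPKM in the others, and the carboxylesterase Ces1f 28.0 RPKM, against 56.4 to 93.7 RPKM. In the glucocorticoid and fasting list 12 of 23 genes were lowest in library 8, where 18.3% of all detected genes were lowest, and so were 8 of 13 carboxylesterases, 7 of 13 genes of the Cyp4 family and 7 of 14 of the Cyp2c family. Of the genes of fatty acid oxidation 11 of 32 were lowest there and 15 in library 3. In cholesterol synthesis 1 of 17 genes was lowest and 4 were highest in library 8.

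Library 5 held skeletal muscle transcripts. The summed list of 11 muscle genes was 671 RPKM in library 5, 34.3 RPKM in library 6 and 0.746 to 1.39 RPKM in the other 4. Acta1, the actin of muscle fibres, had 229.7 RPKM in library 5 and 8.12 RPKM in library 6, against 0 to 0.188 RPKM in the others. Myh1, a myosin heavy chain of fast fibres, had 96.6 and 3.70 RPKM in libraries 5 and 6, and Ckm, the creatine kinase of muscle, 93.2 and 5.62 RPKM. These genes failed the detection rule because at most 2 libraries reached 0.5 RPKM. In all, 28 genes under the rule reached 5 RPKM in some library, and all 28 did so in library 5. Genes that the liver also transcribes were higher there as well, with the nebulin gene Neb at 22.3 RPKM in library 5, against 2.22 to 4.19 RPKM in the others, the glycolytic enzyme Aldoa at 56.1 RPKM, against 13.9 to 20.5 RPKM, H19, an imprinted noncoding RNA, at 12.6 RPKM, against 0.328 to 1.05 RPKM, and the collagen gene Col1a1 at 12.1 RPKM, against 3.46 to 5.27 RPKM. The hepatocyte list summed to 53006 RPKM in library 5, against 46940.5 RPKM in library 3 and 54156 to 58826 RPKM in the others.

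A few genes set libraries 6 and 8 apart from libraries 3, 4, 5 and 7. Cwc22, a splicing factor on chromosome 2 (chr2:77881159-77946375), had 12.9 and 12.0 RPKM in libraries 6 and 8, against 2.06 to 2.31 RPKM in the others. Cyp3a16, a P450 of fetal mouse liver that failed the detection rule, had 2.00 and 1.50 RPKM in libraries 6 and 8, against 0.0493 to 0.0840 RPKM in the others. Olfr1033 and Olfr1034, neighbours on chromosome 2 (chr2:86020633-86050742), were listed at 0 in libraries 6 and 8, against 0.927 to 1.06 RPKM and 0.485 to 0.992 RPKM in the others. Akr1e1, an aldo-keto reductase on chromosome 13, had 0.224 and 0.432 RPKM in libraries 6 and 8, against 2.55 to 4.97 RPKM in the others. Hamp2, a copy of the iron hormone hepcidin on chromosome 7, had 6.24 and 11.3 RPKM, against 27.2 to 37.8 RPKM, and Cep85, a centrosome protein on chromosome 4, 2.09 and 2.28 RPKM, against 4.90 to 5.47 RPKM. Over all 5339 genes libraries 6 and 8 were both above the rest in 10.6% and both below it in 4.68%, so the order itself is common and only the width of these gaps is rare. Baiap2l1, an adaptor between membranes and actin, was apart in 1 library alone, with 15.9 RPKM in library 6 against 5.07 to 6.48 RPKM in the others.

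**Figure D5:**
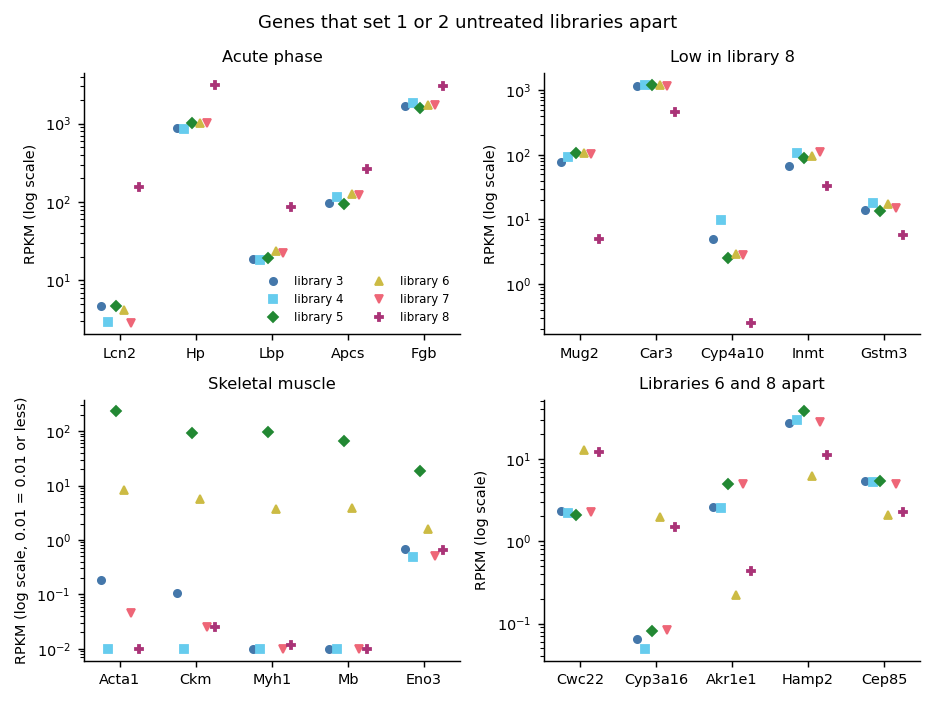
RPKM (vertical, log axis) in each of the 6 untreated libraries for genes with a wide gap between libraries. Lcn2 and Mug2 are apart in library 8 at 153 and 4.99 RPKM, Acta1 in library 5 at 229.7 RPKM, and Cwc22 and Akr1e1 in libraries 6 and 8.

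Gaps of this width were few. Among the 5339 genes with a mean of 1 RPKM or more, 80 (1.50%) had a 2-fold or wider gap between neighbouring libraries in the order of their values, on RPKM + 0.1. Library 5 alone lay above in 17 of them, library 8 alone above in 11 and below in 9. Libraries 3, 6 and 8 lay above in 9, of which 8 were Mup genes and the other was Derl3, which clears misfolded proteins from the endoplasmic reticulum. Libraries 4, 5 and 7 lay above in 3, all of them Mup genes, and libraries 3, 4, 5 and 7 in 7.

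Lists of metabolic and stress genes also differed between libraries. Of 20 genes of fatty acid synthesis 12 were highest in library 7 and 10 were lowest in library 8, against 20.5% and 18.3% of all detected genes, with the fatty acid synthase Fasn at 44.0 RPKM in library 7 and 22.4 to 39.6 RPKM in the rest. Hmgcs1, an early enzyme of cholesterol synthesis, had 41.9, 45.0 and 43.7 RPKM in libraries 4, 7 and 8 and 25.2, 24.6 and 24.6 RPKM in libraries 3, 5 and 6, and Idi1, a later one, was split between the same libraries. Of 19 heat shock genes 10 were highest in library 4 and 11 lowest in library 7, against 14.8% and 12.4% of all detected genes, with Hspa8, the constitutive chaperone, at 607 and 364 RPKM there. Interferon-induced genes were highest in library 7 in 17 of 29 cases, where 20.5% of all detected genes were highest, with the antiviral protein Ifit3 at 4.03 RPKM in library 7 and 2.36 to 3.07 RPKM in the rest. Hamp, the iron hormone itself, ranged from 30.2 RPKM in library 4 and 39.5 in library 6 to 173 RPKM in library 3. Library 3, with the lowest summed RPKM, was lowest for 45 of 55 nuclear genes of oxidative phosphorylation, where 33.9% of all detected genes were lowest.

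Of 20 listed gene pairs 17 were testable over the 6 libraries, and 6 passed an exact permutation test over all 720 pairings after Benjamini-Hochberg adjustment over the 17, on log2(RPKM + 1). With median-ratio scaling of the libraries 1 of the 17 passed. The pairs were chosen with earlier results of these data known, so the p-values describe these libraries and are no independent test. Hba-a1 and Hbb-b1 had r = 0.996 and rho = 1 (exact permutation p = 0.00278, the smallest possible, adjusted p = 0.0472, n = 6) and r = 0.978 without libraries 3 and 5. Fga and Fgb had r = 0.997 and rho = 0.943 (exact permutation p = 0.00556, adjusted p = 0.0472) and r = 0.950 without libraries 5 and 8. The others were Ifit1 and Ifit3 (r = 0.984, rho = 0.943, r = 0.929 without libraries 7 and 8), Hspa1b and Dnajb1 (r = 0.958, rho = 0.829, r = 0.797 without the same libraries), Col1a1 and Col3a1 (r = 0.946, rho = 0.771, r = 0.747 without libraries 4 and 5) and Cyp4a10 and Cyp4a14 (r = 0.939, rho = 0.943, r = 0.973 without libraries 4 and 8), each with an exact permutation adjusted p = 0.0472. Hspa1b is 99.6% identical in coding sequence to Hspa1a, so the split of reads between these copies is uncertain. By Spearman's rho only the globin pair passed, with an adjusted p of 0.0472 by the same exact permutation. Hp and Lcn2 had r = 0.981, but the exact permutation adjusted p was 0.189 and r was −0.446 without libraries 4 and 8 and 0.146 without library 8 alone, so that relation rests on library 8. The pair of clock genes Arntl and Npas2 (r = −0.459, rho = −0.486, exact permutation adjusted p = 0.486) and the pair of bile acid enzymes Cyp7a1 and Cyp8b1 (r = −0.102, rho = −0.143, exact permutation adjusted p = 0.886) missed the threshold, and r became positive, at 0.821 and 0.756, when the libraries 3 and 8 and the libraries 4 and 8 were left out. With 1 library left out, r was positive only without library 8 for the clock pair (0.284). For the bile acid pair it was positive only without library 4 (0.491). The pair Fkbp5 and Lpin1 shifted the other way, from r = −0.0913 to −0.960 without libraries 7 and 8. Libraries left out together were those farthest from the median of the first gene, and few libraries remained.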

How the data were processed

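The authors deposited 1 table of RPKM, with a row for each gene and a column for each sample. Only the 6 columns of the 0 g/L dose were read, and each was tied to its sample by the title. STAR 2.4, CASAVA and Partek are named, with the build mm10, per the submitters' processing notes, which give no role for each. Which gene models were used for RPKM is not given in the sources, nor is whether counting used the strand that the kit keeps, so overlapping and antisense genes may share reads. Zeros stand in the deposited table as 1e-04 and were set to 0. The table ends within the line of Olfr272, which was dropped, as were 13 lines whose symbols had turned into dates. Genes later in the alphabet were not analysed here.

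A gene was called detected where 3 or more libraries reached 0.5 RPKM. Detected genes were described by mean, SD, CV, rank and share of the summed RPKM. Range and gap used RPKM + 0.1, principal components and correlations log2(RPKM + 1). Gene pairs were tested with two-sided exact permutation tests, adjusted by Benjamini-Hochberg. There is 1 group, so no test between groups was made. Depth was estimated from RPKM times gene length (GENCODE M21), where the median of low values within a preset window was taken as 1 read. The window limits the depths that can be found, and the counting CVs rest on these depths. With this unit 67.6% to 71.4% of low values lay within 0.1 of a whole number of reads. Of the values above 0, 0.339% stand for under 0.5 read, so the authors' counting may have split reads between genes. The scripts (Python 3.11.15, numpy 2.4.6, pandas 2.3.3, scipy 1.17.1, matplotlib 3.10.9) were tested on simulated data.

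Genes were named by a rule: the 25 of highest mean, the 25 of highest and 10 of lowest CV at a mean of 5 RPKM or more, the 4 highest and the most variable member of each list or family, and the members of the pairs. Other genes, among them those with a 2-fold gap, the muscle genes of library 5, Ddx3y, Cyp3a16, Olfr1033 and Olfr1034, were chosen after their values were seen. The members, lists and pairs were chosen with earlier results of these data known. Titles of all 6 libraries carry the tag L1, whose meaning is not stated.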

Additional observations from a re-analysis of the deposited data

Results flagged for a closer look

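Each sample below lay further from the nearest of the other 5 libraries, relative to the whole range, than Dixon's limit of 0.625 for 6 values allows. By chance about 1 group in 20 would do so, and of the 5339 genes with a mean of 1 RPKM or more 393 (7.36%) did. Of the 393, 145 were flagged in library 3, 86 in library 8 and 60 in library 5. Libraries 6 and 7 had 37 each and library 4 had 28. The genes named in the report were in part chosen for their spread, so their number here is no measure of that rate.

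Several were high in library 8. They are Lcn2, a gene of the acute phase, with 153 RPKM, Hp with 3108, Hpx with 3075, Lbp with 86.1, Apcs with 267, Itih4 with 808, Fga with 2167, Fgb with 3049, Fgg with 2529.8, Nnmt with 56.7 and Mt1 with 68.5 RPKM. The fibrinogen chains took 4.86% and complement components 2.57% of the summed RPKM in that library. The Kupffer cell genes C1qa with 24.4 and Marco with 2.11 RPKM were high there as well, while Car3 with 466 and Mug2 with 4.99 RPKM were low.

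In library 5 the muscle genes Acta1 with 229.7, Ckm with 93.2, Myh1 with 96.6 and Neb with 22.3 RPKM were high, as were Aldoa with 56.1, Col1a1 with 12.1 and H19 with 12.6 RPKM. That library also had the most genes at 0.5 RPKM or more, 6425.

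Single genes made up the rest. Baiap2l1 was high in library 6 with 15.9 RPKM. In library 7 Cyp4a12a was high with 144 RPKM and Mup2 with 27.0 RPKM. Library 4 was high for Cyp4a14, a P450 of fatty acids, with 2.84 RPKM. Cyp2b13 was flagged at 0.0193 RPKM in library 4, the others being listed at 0. A single value above 0 among zeros is always flagged, however small, so this flag carries no weight. Library 3 was high for Mup10 with 108 RPKM and for Mmp19 with 16.0 RPKM, although Mmp19 had the lowest CV among genes with a mean of 5 RPKM or more.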

How the results depend on the processing

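Depth limits the genes below 1 RPKM most, whose counting CV alone had a median of 11.2%. The count of detected genes, the shares of the 10 and the 100 highest genes and the family shares moved by less than their spread or stayed within 1.5 times under each setting tried, except the shares of interleukins and of RIKEN clones without the detection filter. The median CV of 11.4% was 17.2% without the detection filter (mean above 0.01 RPKM), 10.6% at 1 RPKM in at least 3 libraries, 10.9% at 0.5 RPKM in all 6 and 9.49% at a mean of 5 RPKM or more, and 10.5% to 11.6% when 1 library was left out. The 534 genes with a 2-fold range became 220 with a pseudocount of 1, 131 at a mean of 5 RPKM or more, 328 without libraries 5 and 8 and 408 to 475 with 1 library left out. The 80 genes with a 2-fold gap became 51 with a pseudocount of 1 and 71 to 93 with 1 library left out. The first principal component held 30.7% of the variance, 28.1% with genes scaled to unit SD and 32.5% to 38.9% with 1 library left out. The 6 gene pairs past the threshold became 1 with median-ratio scaling and 1 with Spearman's rho. Fewer genes or libraries enter the filtered and left-out settings; otherwise the cause was not tested. The gap count, the mean limit on CV the setting without libraries 5 and 8 and the left-out libraries for gaps, list medians and axis scores were chosen after seeing the data. No paired analysis was possible because a single group was used.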
